A study of Drosophila melanogaster with 30 samples.

Results

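RNA from flying *pink1*B9 mutant flies (group 4) was compared with RNA from *pink1*B9 flies whose families held no flier at all (group 2). The comparison takes 18 of the 30 libraries of the study, 10 of group 4 and 8 of group 2, and all genes. Each library was made from a pool of 5 whole male *Drosophila melanogaster* aged 1 day. Every fly of both groups carried the same null deletion of *Pink1* in a *w* background, and no transgene was involved. Flies of group 4 came from parent pairs that also gave non-flying offspring (group 3, 10 libraries), whereas the pairs behind group 2 gave none that flew. Thus, flight and family differ together here and cannot be told apart. Group 1, 2 libraries of *pink1*RV revertant flies with an intact gene, served as the control. The labels do not say which parent pair a pool came from, so the p-values measure the spread between pools.

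Pink1 is a kinase that gathers on damaged mitochondria and activates the ubiquitin ligase parkin, which marks these organelles for removal. Flies without Pink1 are known for swollen mitochondria and degeneration of the indirect flight muscles, fail to fly, and have sterile males with defective sperm. Loss is not equally severe in each fly, and the comparison asks which transcripts differ between mutants that kept flight and families that lost it altogether.

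Total counts ranged from 6434252 to 24669715 in group 2 and from 9052445 to 38330421 in group 4. The tissue label of 6 libraries reads human skin, 3 of them in group 4 (replicates 8, 9 and 10), yet all libraries share 1 table of fly genes. In the library GC055057 (group 4, replicate 4), transcripts of the ovary were abundant although males were pooled. The summed level of 29 ovary, eggshell and yolk genes was 7611 CPM (counts scaled to library size) there, 56.4 to 76.9 CPM in the 9 other libraries of group 4 and 59.0 to 73.8 CPM in group 2. Values below are therefore given without GC055057 unless stated, and with it where it mattered.

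No gene passed the adjusted threshold of 0.05 among 13200 genes tested with edgeR (0%), and none among 13190 with GC055057 included. The smallest adjusted p with edgeR was 0.340 without and 0.218 with this library. At an unadjusted p under 0.05, 1598 genes differed (12.1%), of which 623 were higher (4.72%) and 975 lower (7.39%) in the flying mutants. With GC055057, the count was 1593 (12.1%), with 899 higher (6.82%) and 694 lower (5.26%), and 988 genes were found in both with the same direction. DESeq2 called 2 genes at an adjusted p under 0.05 without GC055057 and 3 with it, and limma-voom called none in either case. At an unadjusted p under 0.05, DESeq2 counted 1752 and 1535 genes, and limma-voom 1660 and 1345 genes. Below, nominally higher or lower means an unadjusted p under 0.05 with edgeR, and fold changes are log2 of group 4 over group 2.

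Transcript length ordered these differences. Genes were split into 6 classes by the median length of their annotated transcripts. In the shortest class, 195 to 823 bases, 266 of 2201 genes were nominally higher (12.1%) and 21 lower (0.954%). In the longest class, 3403 to 57886.5 bases, 8 of 2200 genes were nominally higher (0.364%) and 605 lower (27.5%). The median log2 fold change went down at each step, with 0.196, 0.108, 0.049, −0.008, −0.079 and −0.183 from the shortest to the longest class. With GC055057 it went from 0.175 to −0.126, and the counts were 302 higher in the shortest class and 412 lower in the longest.

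**Figure D1:**
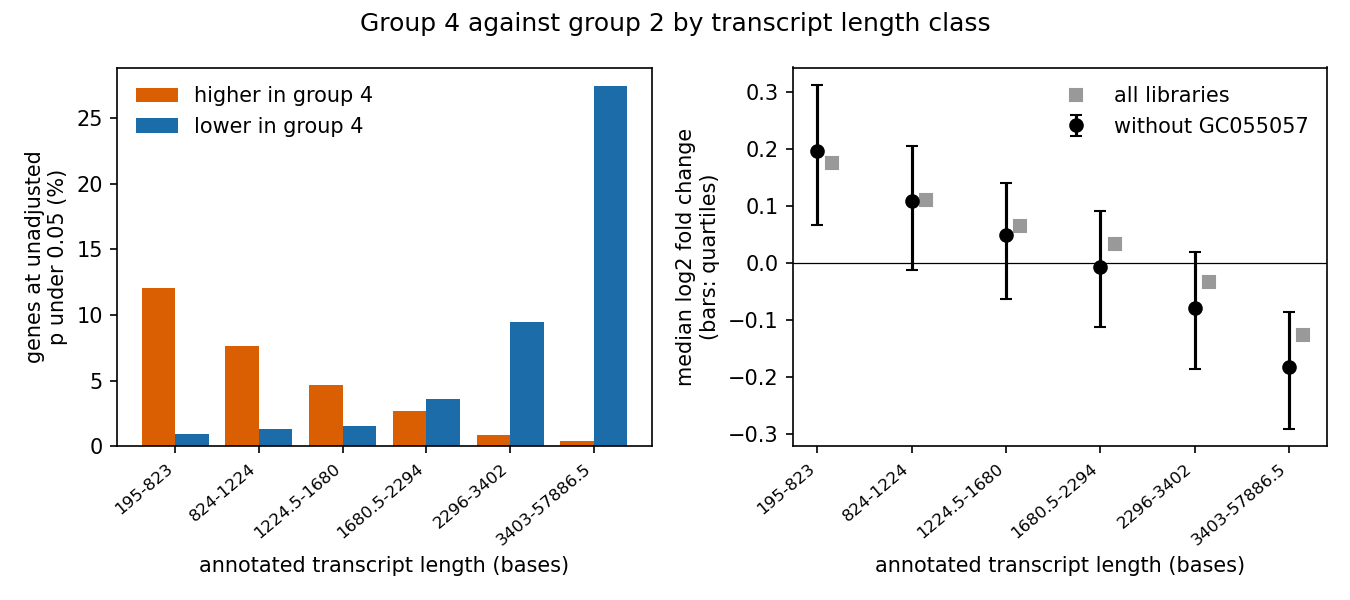
The left panel plots the percentage of genes that were nominally higher (orange) or lower (blue) in group 4 against the class of annotated transcript length in bases, and the right panel plots the median log2 fold change of each class with its quartiles (black, without GC055057) and with all libraries (grey). The higher share goes down from 12.1% to 0.364% and the lower share goes up from 0.954% to 27.5% along the axis.

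The same trait was measured for each library as a length index, the median centred log2(CPM + 1) of the shortest class minus that of the longest. It was 0.234 ± 0.291 (SD, n = 9) in group 4, from −0.179 to 0.608 with a median of 0.324. In group 2 it was −0.102 ± 0.421 (SD, n = 8), from −0.667 to 0.482 with a median of −0.187. The groups overlapped, since replicates 4 and 8 of group 2 reached 0.481 and 0.482, and the difference did not pass a two-sided exact permutation test (p = 0.0769, adjusted p = 0.215 over 14 tests on library measures). In group 3 the index ran from −0.376 to 0.577, and the controls were at −0.452 and −0.715. When the index was added to the edgeR fit, 79 genes of the shortest class were nominally higher and 216 lower, and 75 genes of the longest class were higher and 117 lower. Single libraries moved the counts. The number of short genes that were higher went from 148 without replicate 5 of group 2 to 527 without replicate 4. It was 150 and 168 without replicates 1 and 2 of group 2 and 473 without replicate 8. The number of long genes that were lower was 364, 390 and 397 without replicate 3 of group 2, replicate 2 of group 2 and replicate 2 of group 4, respectively. Without the libraries labelled human skin the counts were 134 and 363, and with 2 surrogate variables 312 long genes were lower.

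Chromosome 4, the small and largely heterochromatic autosome of the fly, stood lower in the flying mutants than the other arms. Without GC055057, 37 of its 84 tested genes were nominally lower (44.0%) and 0 were higher, with a median log2 fold change of −0.219 and 72 of 84 below 0. On the major arms (X, 2L, 2R, 3L and 3R), 6.78% to 8.0% of genes were nominally lower. Among the longest transcripts, 28 of 41 genes of chromosome 4 were lower (68.3%, median −0.314) against 26.7% on the other arms (median −0.180), and in the second longest class 7 of 23 (30.4%) against 9.25%. With GC055057 it was 30 of 84 genes (35.7%). When the length index entered the fit, 16 of 84 were nominally lower (19.0%, median −0.090) against 6.27% of all genes. Fits without single libraries gave between 28 genes (without replicate 3 of group 2) and 46 genes (without replicate 8 of group 2).

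The library median of chromosome 4 genes, on the same centred scale, was −0.126 ± 0.134 (SD, n = 9) in group 4, from −0.379 to 0.0515. In group 2 it was 0.0975 ± 0.193 (SD, n = 8), from −0.316 to 0.327. Replicate 8 of group 2 was the library at −0.316 and lay inside the range of the flying mutants, while its group's other libraries were all above 0. The exact permutation test gave p = 0.0150 without GC055057 and p = 0.0106 with it, two-sided, with adjusted p = 0.0573 for both over the 14 tests. This test was not planned. It used the same genes and libraries as the counts above, so it adds no independent support to them. In group 3 this library median was −0.045 on average, from −0.301 to 0.144. The controls, which fly, were at 0.305 and 0.431, on the side of group 2.

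Several of the chromosome 4 genes encode signalling proteins. *pan*, the TCF transcription factor of the Wnt pathway, was at 51.9, 108 and 137 CPM (lowest, median, highest) in group 2 and at 62.4, 75.5 and 84.4 CPM in group 4. All flying libraries of *pan* lay below the lowest of the group 2 libraries other than replicate 8, and its log2 fold change was −0.51 (SE 0.13, edgeR, p = 5.3e-04, adjusted p = 0.359). Without replicate 8 of group 2, *pan* was the 1 gene past the adjusted threshold with edgeR (adjusted p = 0.0319, log2 fold change −0.61). *mGluR*, the metabotropic glutamate receptor, was at 11.7, 19.3 and 23.5 CPM in group 2 and at 7.88, 13.1 and 16.64 CPM in group 4 (−0.57). *PlexA*, a semaphorin receptor that steers axons, was at 78.8, 128 and 190 CPM against 68.2, 83.3 and 104 CPM (−0.58), and its value of 259 CPM in GC055057 took the fold change to −0.31 (edgeR, p = 0.142). Both groups overlapped for these 2 receptors. *PlexB* (−0.60), *onecut* (−0.74) and *zfh2* (−0.65), a second plexin and a pair of transcription factors, were also nominally lower, as were *Eph* (−0.43), *CaMKII* (−0.37), *Actbeta* (−0.44), *toy* (−0.31) and *Mitf* (−0.36).

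Transcripts made in the mitochondrion itself formed the list with the lowest median. Of 12 mitochondrially encoded genes tested, 9 were nominally lower, 0 higher, and the median log2 fold change was −0.61 (−0.64 with GC055057, again 9). *mt:ND4*, a subunit of complex I, was at 209, 491 and 1569 CPM in group 2 and at 172, 291 and 523 CPM in group 4. Replicates 1, 2 and 3 of group 2 held its 3 highest values, at 791, 1477 and 1569 CPM, and the rest of group 2 lay between 209 and 547 CPM, close to the flying libraries. Its log2 fold change was −1.27 (SE 0.37, edgeR, p = 0.00174, adjusted p = 0.359).

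*mt:CoI*, the catalytic subunit of cytochrome c oxidase, was at 4209, 6831 and 12438 CPM in group 2 and at 3404, 4592 and 6924 CPM in group 4 (−0.67). *mt:Cyt-b* of complex III was at 1680, 3007 and 6158 CPM against 1461, 2093 and 3308 CPM (−0.79). *mt:CoII* differed least among those counted, with 2014, 2833 and 3210 CPM against 1777, 2318 and 2534 CPM (−0.26). The groups overlapped for each of these genes. *mt:ND5* (−0.91), *mt:ATPase6* (−0.72), *mt:CoIII* (−0.62), *mt:ND3* (−0.60) and *mt:ND1* (−0.54) were lower too, while *mt:ND2* (0.33), *mt:ND4L* (0.37) and *mt:ND6* (0.31) did not pass.

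The share of all counts that these transcripts took was 1.46% ± 0.342 (SD, n = 9) in group 4, from 1.12% to 2.18%. It was 2.29% ± 0.857 (SD, n = 8) in group 2, from 1.22% to 3.57%. The two-sided exact permutation test, also not planned, gave p = 0.0164, and p = 0.00983 with GC055057, with adjusted p = 0.0573 for both. The share was 1.60% on average in group 3 and 3.32% and 5.64% in the controls. With the length index in the fit, 0 of the 12 genes were nominally lower and the median log2 fold change was −0.29. Without replicate 3 of group 2, 5 of 12 were lower.

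**Figure D2:**
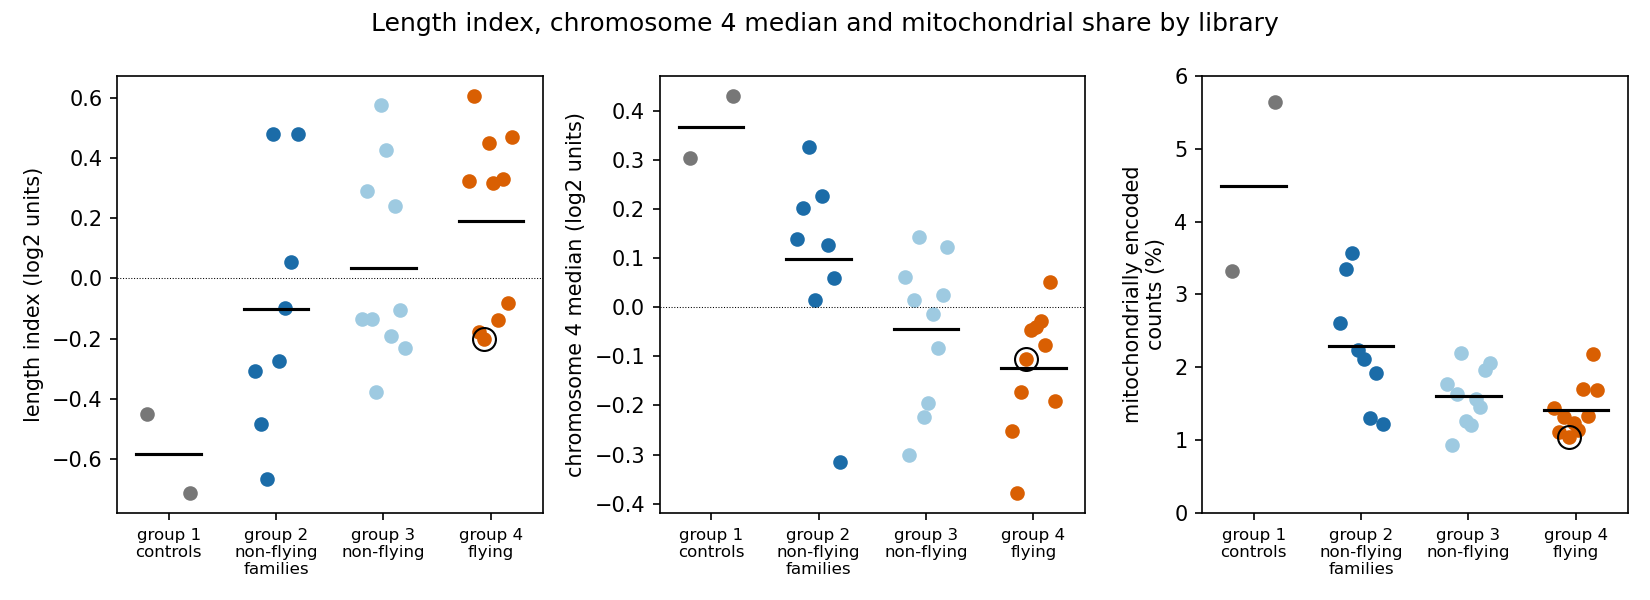
Each point is a library and each bar a group mean, for the length index (left, log2 units), the median of chromosome 4 genes (middle, log2 units) and the share of counts from mitochondrially encoded genes (right, %), with GC055057 ringed. The flying mutants reach down to −0.379 on chromosome 4 while 7 of the 8 group 2 libraries are above 0, and the mitochondrial share ends at 2.18% in group 4 but at 3.57% in group 2.

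In contrast, the nuclear genes of the respiratory chain leaned upward. Of 32 tested subunits of complex I, which oxidises NADH, 13 were nominally higher (40.6%) and 0 lower, with a median log2 fold change of 0.24, against a median of 0.20 over all genes in their length class. *ND-B18* was at 57.5, 77.7 and 106 CPM in group 2 and at 92.4, 106 and 140 CPM in group 4 (0.49, SE 0.15, edgeR, p = 0.00340, adjusted p = 0.359), and each flying library was above the group 2 median. Of 36 subunits of complexes II to V, 9 were higher and 0 lower (median 0.26). They included *cype* of cytochrome c oxidase (0.47), with 190, 258 and 413 CPM against 304, 357 and 491 CPM, and *UQCR-6.4* of complex III (0.51). Only 2 genes of each list were higher once the length index was in the fit. Without replicates 1 and 5 of group 2, 6 and 5 of the complex I genes were higher, and without replicates 2 and 5 of group 4 it was 8 and 7. For complexes II to V, 4 were higher without replicate 1 or 5 of group 2 and 15 without replicate 7.

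Mitochondrial ribosomal proteins, which translate the organelle's own messages, were nominally higher for 24 of 73 genes (32.9%) and lower for 0, with a median of 0.19 against 0.20 in the length class. *mRpL33* was at 5.75, 6.09 and 8.11 CPM in group 2 and at 7.02, 8.27 and 9.98 CPM in group 4 (0.33, SE 0.10, edgeR, p = 0.00186, adjusted p = 0.359). With GC055057, 34 of the 73 were higher. It was 8 with the length index, and without replicates 1 and 5 of group 2 it was 15 and 12. For cytosolic ribosomal proteins, 11 of 80 were higher (13.75%), near the 12.1% of all genes in the shortest length class. Their median was 0.15, below the 0.20 of the length class. The count was 33 with GC055057 and 1 with the length index. It ran from 2 (without replicate 5 of group 2) to 33 (without replicate 4) when a library was left out. That count was 3 without replicate 2 of either group, 4 without replicate 3 of group 2 or replicate 5 of group 4, 29 without replicate 7 of group 2, 17 without replicate 7 or 9 of group 4, 7 without replicate 1 of group 2 and 6 without replicate 10 of group 4. The proteasome list held 6 higher of 32 (median 0.14), *Prosbeta7* (0.27), *Prosbeta6* (0.25) and *Prosbeta1* (0.27) of the catalytic core among them, 1 with the length index, 1 without the libraries labelled human skin and 3 without replicate 1, 5 or 7 of group 2 or 6, 8 or 9 of group 4.

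Antioxidant enzymes were nominally higher for 10 of 57 genes (17.5%) and lower for 0. *Prx3*, a peroxiredoxin of the mitochondrion, was at 50.3, 62.0 and 74.9 CPM in group 2 and at 66.4, 70.4 and 85.9 CPM in group 4 (0.24, SE 0.07, edgeR, p = 0.00275, adjusted p = 0.359). The superoxide dismutases *Sod1* (0.23), *Sod2* (0.25) and *Sod3* (0.24) and the glutathione transferases *GstE1* (0.44), *GstE5* (0.54), *GstE10* (0.43), *GstE14* (0.48) and *GstD11* (0.49) were in this group, with *SelR*, a methionine sulfoxide reductase (0.17). The count was 6 with the length index in the fit, and 6 without replicate 5 of group 2. The median of the list, 0.07, was below that of its length class, 0.11.

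Among the genes of the endoplasmic reticulum (ER), those for protein entry had a median above that of their length class. The list covers the translocon, the signal peptidase and the oligosaccharyl transferase, which take proteins into the ER, trim them and attach sugars. Of 27 genes, 10 were nominally higher (37.0%) and 0 lower, with a median of 0.18 against 0.05 in the length class and 22 above 0. *twr*, the catalytic subunit of the signal peptidase, was at 70.4, 77.8 and 108 CPM in group 2 and at 92.6, 104 and 126 CPM in group 4 (0.36, SE 0.11, edgeR, p = 0.00287, adjusted p = 0.359). *Spase22-23* of the same enzyme was at 495, 746 and 1523 CPM against 867, 1342 and 1734 CPM (0.61). For both, each of the 9 flying libraries lay above the group 2 median, and the groups overlapped.

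*Spase12* (0.34), *Spase25* (0.35), *Sec61beta* of the translocon (0.33), *Tapdelta* (0.20), *Ostgamma* (0.20), *Ost48* (0.16), *Srp14* (0.28) and *Srp19* (0.32) made up the rest. This count held at 11 with GC055057 and at 9 with the length index. It was 8 to 14 without single libraries and 5 without those labelled human skin. In the list for the COPI coat, which returns proteins from the Golgi, and the p24 cargo receptors, 5 of 21 were higher. These were *Sec13* (0.21), *epsilonCOP* (0.31), *eca* (0.26), *zetaCOP* (0.24) and *CHOp24* (0.20). The count was 9 with the length index and 3 without replicate 1 of group 2 or replicate 5, 6 or 8 of group 4. *Sec13* was counted in this list but belongs to the COPII coat, not to COPI. It was above the highest group 2 library in 7 of 9 flying libraries.

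Of 29 genes for ER chaperones and the unfolded protein response, 2 were nominally higher (6.90%) and 4 lower (13.8%). Over all genes these shares were 4.72% and 7.39%. The median was −0.01, as in the length class. The balance turned with the length index in the fit, to 6 higher and 1 lower, and the lower count was 1 and 2 without replicates 3 and 1 of group 2 and 6 without replicate 4. Without replicate 3 or 8 of group 2 or 3 of group 4, 4 were higher. The stress sensors *Ire1* (−0.38) and *Atf6* (−0.27), the calnexin *Cnx14D* (−0.28) and the exchange factor *Sil1* (−0.33) were lower. *KdelR*, the receptor that returns ER residents from the Golgi, was higher, at 98.7, 107 and 117 CPM in group 2 and at 112, 121 and 135 CPM in group 4. All 9 flying libraries were above the group 2 median and 7 above its highest library (0.19, SE 0.07, edgeR, p = 0.0107, adjusted p = 0.361). *wbl*, a chaperone of the protein disulfide isomerase family, was at 20.3, 27.0 and 33.8 CPM against 28.9, 34.1 and 43.5 CPM (0.37, SE 0.15, edgeR, p = 0.0192, adjusted p = 0.365). GC055057 had the second lowest *wbl* level of the 18 libraries, 20.4 CPM, and with it the fold change was 0.31 (edgeR, p = 0.0581).

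The other genes that the study had followed up in flies differed less in the fit without the length index. *Torsin*, an ATPase of the ER and nuclear envelope, was at 13.0, 15.7 and 21.9 CPM in group 2 and at 14.4, 18.1 and 20.8 CPM in group 4 (0.11, edgeR, p = 0.329), and at 37.9 CPM in GC055057. *zda*, known from autophagy in the fly, was at 187, 208 and 233 CPM against 174, 212 and 231 CPM (−0.01, SE 0.06, edgeR, p = 0.902), so the spread covered any difference. In the fit with the length index, *KdelR* was at 0.16 (edgeR, p = 0.0246) and *wbl* at 0.34 (edgeR, p = 0.0430). *Torsin* was at 0.23 in that fit (SE 0.10, edgeR, adjusted p = 0.360), above the value of *KdelR*, and *zda* at 0.005.

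**Figure D3:**
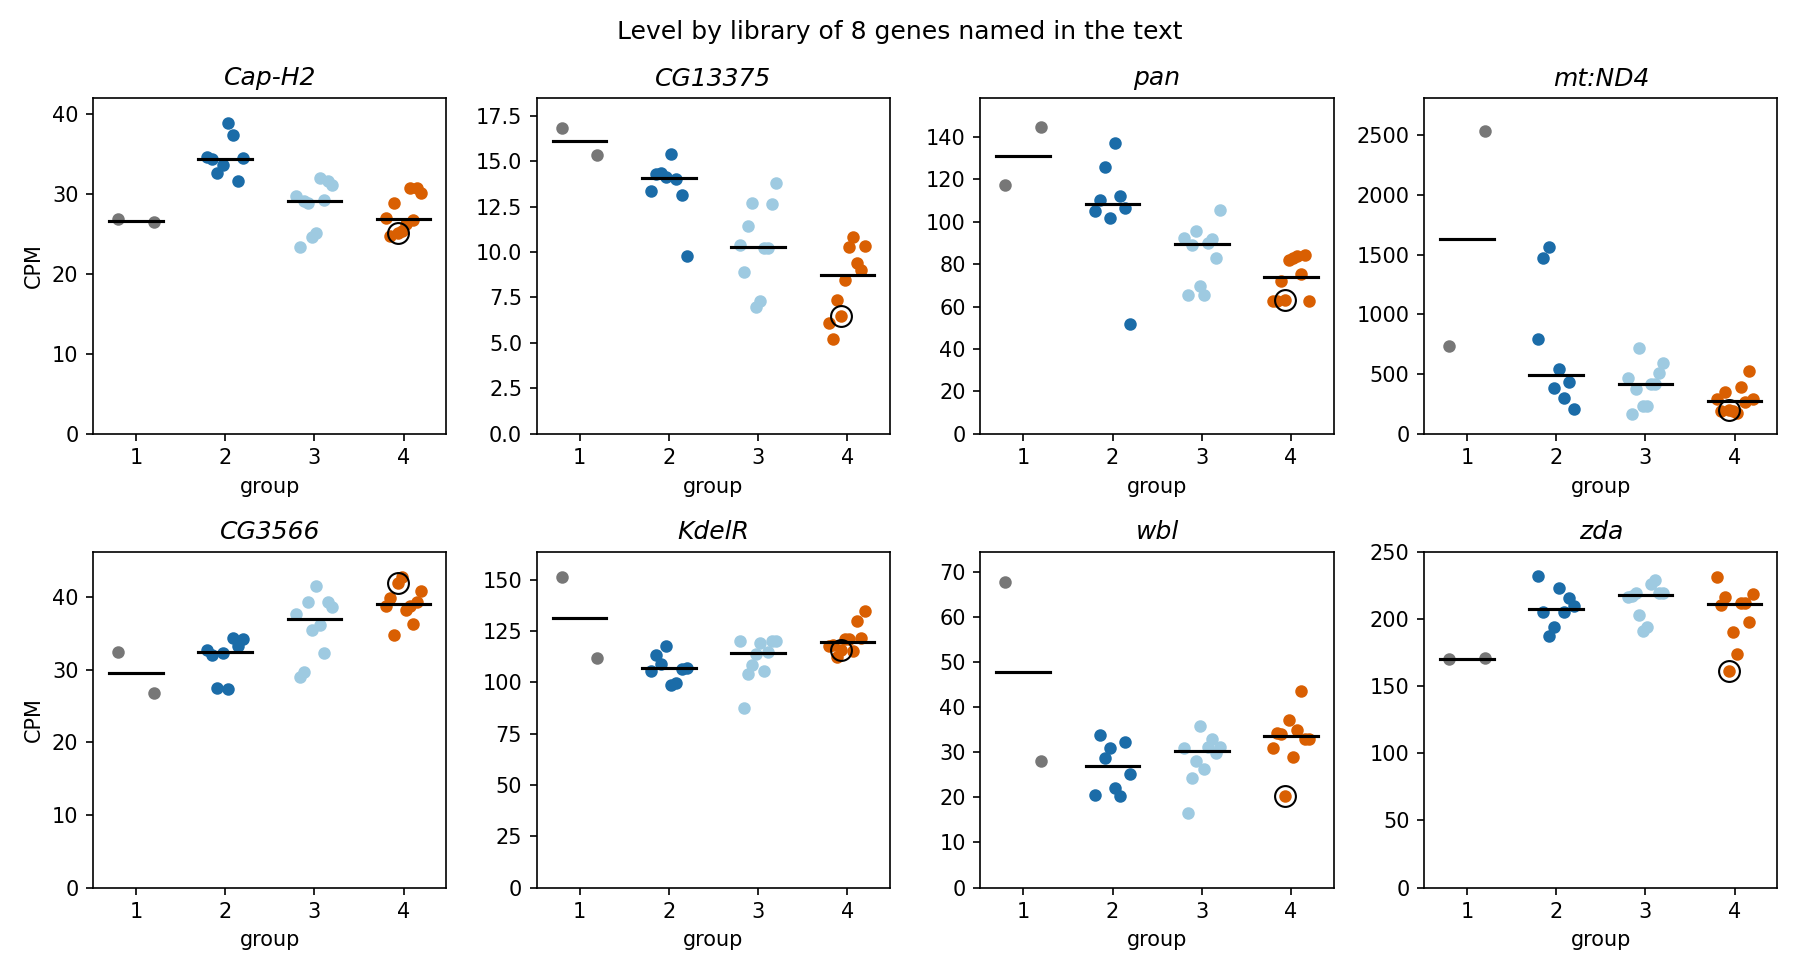
Each point is the level of a library in CPM for *Cap-H2*, *CG13375*, *pan*, *mt:ND4*, *CG3566*, *KdelR*, *wbl* and *zda* in groups 1 to 4, each bar is the group median over all libraries, and GC055057 is ringed. *Cap-H2* ends at 30.8 CPM in group 4 where group 2 begins at 31.7 CPM, *CG3566* begins at 34.8 CPM where group 2 ends at 34.4 CPM, and *zda* runs from 187 to 233 CPM in group 2 and from 161 to 231 CPM in group 4.

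Of the 12 genes with the smallest p and a mean of at least 5 CPM, 7 were lower and 5 higher in the flying mutants. *Cap-H2*, a subunit of condensin II that compacts chromosomes and keeps homologues apart, was at 31.7, 34.5 and 38.9 CPM in group 2 and at 24.8, 27.0 and 30.8 CPM in group 4. These ranges did not overlap, nor did they with GC055057 at 25.2 CPM (−0.31, SE 0.07, edgeR, p = 6.8e-05, adjusted p = 0.340). The non-flying flies of group 3 were close to group 4, at 23.4, 29.2 and 32.1 CPM, and the controls were at 26.5 and 26.9 CPM. *CG13375* was at 9.78, 14.1 and 15.4 CPM against 5.22, 9.03 and 10.9 CPM (−0.65, SE 0.14, edgeR, p = 6.3e-05, adjusted p = 0.340). Here replicate 8 of group 2, at 9.78 CPM, lay among the flying libraries. DESeq2 gave adjusted p = 0.0236 for *Cap-H2* and for *CG13375*. *CG7166* was at 18.2, 21.0 and 25.4 CPM against 9.22, 15.5 and 18.8 CPM (−0.49, SE 0.11, edgeR, p = 1.5e-04, adjusted p = 0.359).

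Besides *Cap-H2*, the ranges were apart for *CG3566*, at 27.4, 32.5 and 34.4 CPM in group 2 and at 34.8, 38.8 and 42.8 CPM in group 4 (0.30, SE 0.08), and for *RluA-2*, a gene of the pseudouridine synthase family, at 8.75, 9.30 and 10.7 CPM against 6.11, 7.89 and 8.53 CPM (−0.28, SE 0.08). Such genes were 2 of 13200 below (0.0152%) and 1 above (0.00758%). With GC055057, at 14.2 CPM for *RluA-2*, 1 gene was below and 1 above (0.00758% each). *Tsp42En*, a tetraspanin, was at 3.11, 3.96 and 5.47 CPM against 4.93, 6.02 and 7.77 CPM (0.58), *CG9034* at 57.9, 78.1 and 98.7 CPM against 89.1, 106 and 145 CPM (0.53), and *CG15465* at 5.40, 8.60 and 16.2 CPM against 12.4, 14.3 and 21.9 CPM (0.69). In these 3 genes all 9 flying libraries were above the group 2 median, and the ranges overlapped. The 6 largest differences upward were taken among genes with an unadjusted p under 0.01 and a mean of at least 5 CPM. They were *CG11600* (0.84), *CG33946* (1.04), *CG10508* (1.00), *CG43168* (0.87) and the seminal fluid genes *Acp53C14c* (0.76) and *Sfp24Bc* (0.73).

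Condensin and cohesin are the rings that fold chromosomes and hold sister chromatids together. Of the 14 genes of this list, 7 were nominally lower (50%), 0 higher, and 14 of 14 were below 0. The median was −0.23 against −0.18 in the length class, the longest. In that class 27.5% of all genes were nominally lower, and the upper quartile of the fold changes was itself below 0, at −0.09. *Nipped-B*, which loads cohesin, was at 94.1, 131 and 160 CPM in group 2 and at 73.1, 91.9 and 107 CPM in group 4 (−0.46, SE 0.11, edgeR, p = 2.0e-04, adjusted p = 0.359). All flying libraries were below the group 2 median. The cohesin genes *pds5* (−0.37), *vtd* (−0.35) and *SMC1* (−0.29) and the condensin genes *glu* (−0.21) and *Cap-D3* (−0.24) followed. GC055057 had far more of several of them, with 223 CPM of *Nipped-B*, 95.8 CPM of *pds5* and 119 CPM of *glu*. With GC055057 included, 1 gene was lower and 1 higher. Of the 14 genes, 3 were lower with the length index, and without replicate 2 of group 2 it was 4.

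Neuronal genes were nominally lower for 9 of 25 (36.0%) and higher for 1, with a median of −0.27 against −0.18 in the length class. In that class, the longest, 27.5% of all genes were nominally lower. *CadN*, the neural cadherin, was at 37.8, 50.7 and 56.8 CPM in group 2 and at 29.3, 39.7 and 48.1 CPM in group 4 (−0.32, SE 0.10, edgeR, p = 0.00303, adjusted p = 0.359). *elav*, the RNA-binding protein that defines neurons, was at 21.1, 38.4 and 47.9 CPM against 24.9, 29.9 and 34.4 CPM (−0.33), and *Syx1A*, the syntaxin of synaptic vesicle fusion, at 10.5, 30.1 and 62.9 CPM against 9.22, 15.3 and 31.2 CPM (−0.81). For each of the 3 genes the groups overlapped.

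The glutamate transporter *VGlut* of motor neurons (−0.70), the active zone protein *brp* (−0.34), the calcium sensor *Syt1* (−0.33), *Snap25* (−0.37), *VAChT* (−0.30) and *Vmat* (−0.26) were lower too, and *fne* was higher (0.43). In these whole-fly pools, fewer cells of a type and less RNA per cell cannot be told apart. In the fit with the length index, 1 of 25 was lower and 0 higher, and without replicate 2 or 3 of group 2, or with limma-voom, 5 were lower. *stol*, a calcium channel subunit outside the list, was at 13.6, 31.0 and 35.2 CPM against 6.33, 15.2 and 26.2 CPM (−0.88).

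RNA polymerase II and Mediator had 6 nominally higher (14.6%) and 5 lower (12.2%) of 41 genes, beside 4.72% and 7.39% of all genes. The large subunits *Polr2A* (−0.39) and *Polr2B* (−0.21) and the Mediator genes *MED23* (−0.52), *MED26* (−0.24) and *skd* (−0.25) were lower. The small subunits *Polr2F* (0.43) and *Polr2J* (0.27) and *MED8* (0.18), *MED18* (0.28), *MED27* (0.34) and *Cdk8* (0.39) were higher. These counts were not stable. They were 6 and 0 with GC055057, 1 and 2 with the length index, and single libraries took the higher count from 1 (without replicate 2 of either group) to 12 (without replicate 4 of group 2). Without replicates 1, 2 or 3 of group 2, or 2, 6 or 8 of group 4, 2 genes were lower, and without replicates 1, 3, 5 or 7 of group 2, or 5, 6, 8 or 10 of group 4, 2 were higher.

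Of 40 sarcomere genes of the flight muscle, 4 were nominally higher (10%) and 3 lower (7.5%), beside shares over all genes of 4.72% and 7.39%, with a median of 0.12 against −0.01 in the length class. The giant proteins *sls*, the fly titin (−0.36), and *Msp300*, which anchors nuclei (−0.43), were lower, as was the myosin chaperone *unc-45* (−0.52). *Msp300* was at 490, 960 and 1213 CPM in group 2 and at 539, 636 and 789 CPM in group 4. *Mf*, the myofilin of thick filaments, was higher, at 838, 1234 and 1408 CPM against 1312, 1422 and 1840 CPM (0.34, SE 0.11, edgeR, p = 0.00411, adjusted p = 0.359), and 6 of 9 flying libraries were above the highest of group 2. The troponin C *TpnC73F* (0.50), the actin *Act87E* (0.34) and the muscle LIM protein *Mlp60A* (0.30) were higher as well. The counts were 6 higher and 0 lower with the length index, 2 higher without replicate 1 or 8 of group 2 or 6 of group 4, 6 higher without replicate 3 of group 2 or 10 of group 4, and 5 lower without replicate 4 of group 2. *Act88F*, the actin of the indirect flight muscle, was at 0.21 (edgeR, p = 0.72).

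The Pink1 pathway and mitochondrial quality control list held 0 nominally higher and 4 lower of 33 genes (12.1%). The shares over all genes were 4.72% and 7.39%, and 9.46% were lower in the length class of the list. Its median was 0.00 against −0.08 in the length class. *Opa1*, the fusion GTPase of the inner membrane, was at 101, 119 and 139 CPM in group 2 and at 86.6, 95.3 and 123 CPM in group 4 (−0.22, SE 0.08, edgeR, p = 0.00706, adjusted p = 0.359), and 6 of 9 flying libraries were below the lowest of group 2. *Letm1*, an ion exchanger (−0.26), the chaperone *Hsc70-5* (−0.28) and the protease *Afg3l2* (−0.24) were the others. Without the libraries labelled human skin 0 were lower. Leaving out 1 library gave 2 lower (replicate 1 of group 2) to 8 lower (replicate 4 of group 2 or 7 of group 4), and 3 or 4 higher without replicates 4 or 8 of group 2 or replicate 9 of group 4. *park*, the gene of parkin, was at 0.14 (edgeR, p = 0.245). *Pink1* itself was at 42.5, 55.5 and 60.5 CPM in group 2 and at 46.4, 59.8 and 67.7 CPM in group 4, against a mean of 246 CPM in the controls. It did not differ between the groups beyond its spread (0.14, SE 0.09, edgeR, p = 0.108), and with GC055057, at 101 CPM, it was at 0.23 (edgeR, p = 0.0422).

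Genes of the accessory gland, whose secretions pass to the female with sperm, had the highest median of all lists. Of 61 genes, 21 were nominally higher (34.4%) and 0 lower, 60 were above 0, and the median was 0.38 against 0.20 in the length class. *EbpIII*, a protein of the ejaculatory bulb, was at 553, 738 and 939 CPM in group 2 and at 825, 943 and 1365 CPM in group 4 (0.40, SE 0.12, edgeR, p = 0.00302, adjusted p = 0.359). *SP*, the sex peptide that changes female behaviour after mating, was at 9.41, 19.8 and 49.7 CPM against 16.7, 36.5 and 77.6 CPM (0.68), and *Met75Cb* at 154, 294 and 637 CPM against 365, 521 and 997 CPM (0.71). The ranges overlapped for all 3 genes.

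The summed level of the accessory gland list was 8508, 12199 and 17277 CPM in group 2 and 10841, 15600 and 24523 CPM in group 4. The count of higher genes was not stable. It was 10 with GC055057, 4 with the length index, 6 without the libraries labelled human skin and 9 without replicate 10 of group 4, the library with the highest sum. Without replicate 1, 3 or 5 of group 2 it was 11, 12 and 12, without replicate 4 or 8 of group 2 it was 36 and 35, and without replicate 3 or 9 of group 4 it was 33. With limma-voom it was 32. Protamines and spermatid genes, from the same males, were higher for 3 of 47 (*Mst84Db*, *Mst84Dc* and *Mst36Fb*) with GC055057 left out and for 0 with it. This count ran from 0 (without replicate 1, 2, 3 or 5 of group 2 or 2, 5, 8 or 10 of group 4) to 22 (without replicate 8 of group 2). It was 11 without replicate 4 of group 2, 1 without replicate 6 of group 2 or 1 or 6 of group 4, 8 without replicate 3 or 9 of group 4 and 7 without replicate 7 of group 4. In the fit with the length index, 0 were higher and 7 lower. Their summed level was 19613, 31489 and 41268 CPM in group 2 and 27614, 36502 and 39491 CPM in group 4.

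**Figure D4:**
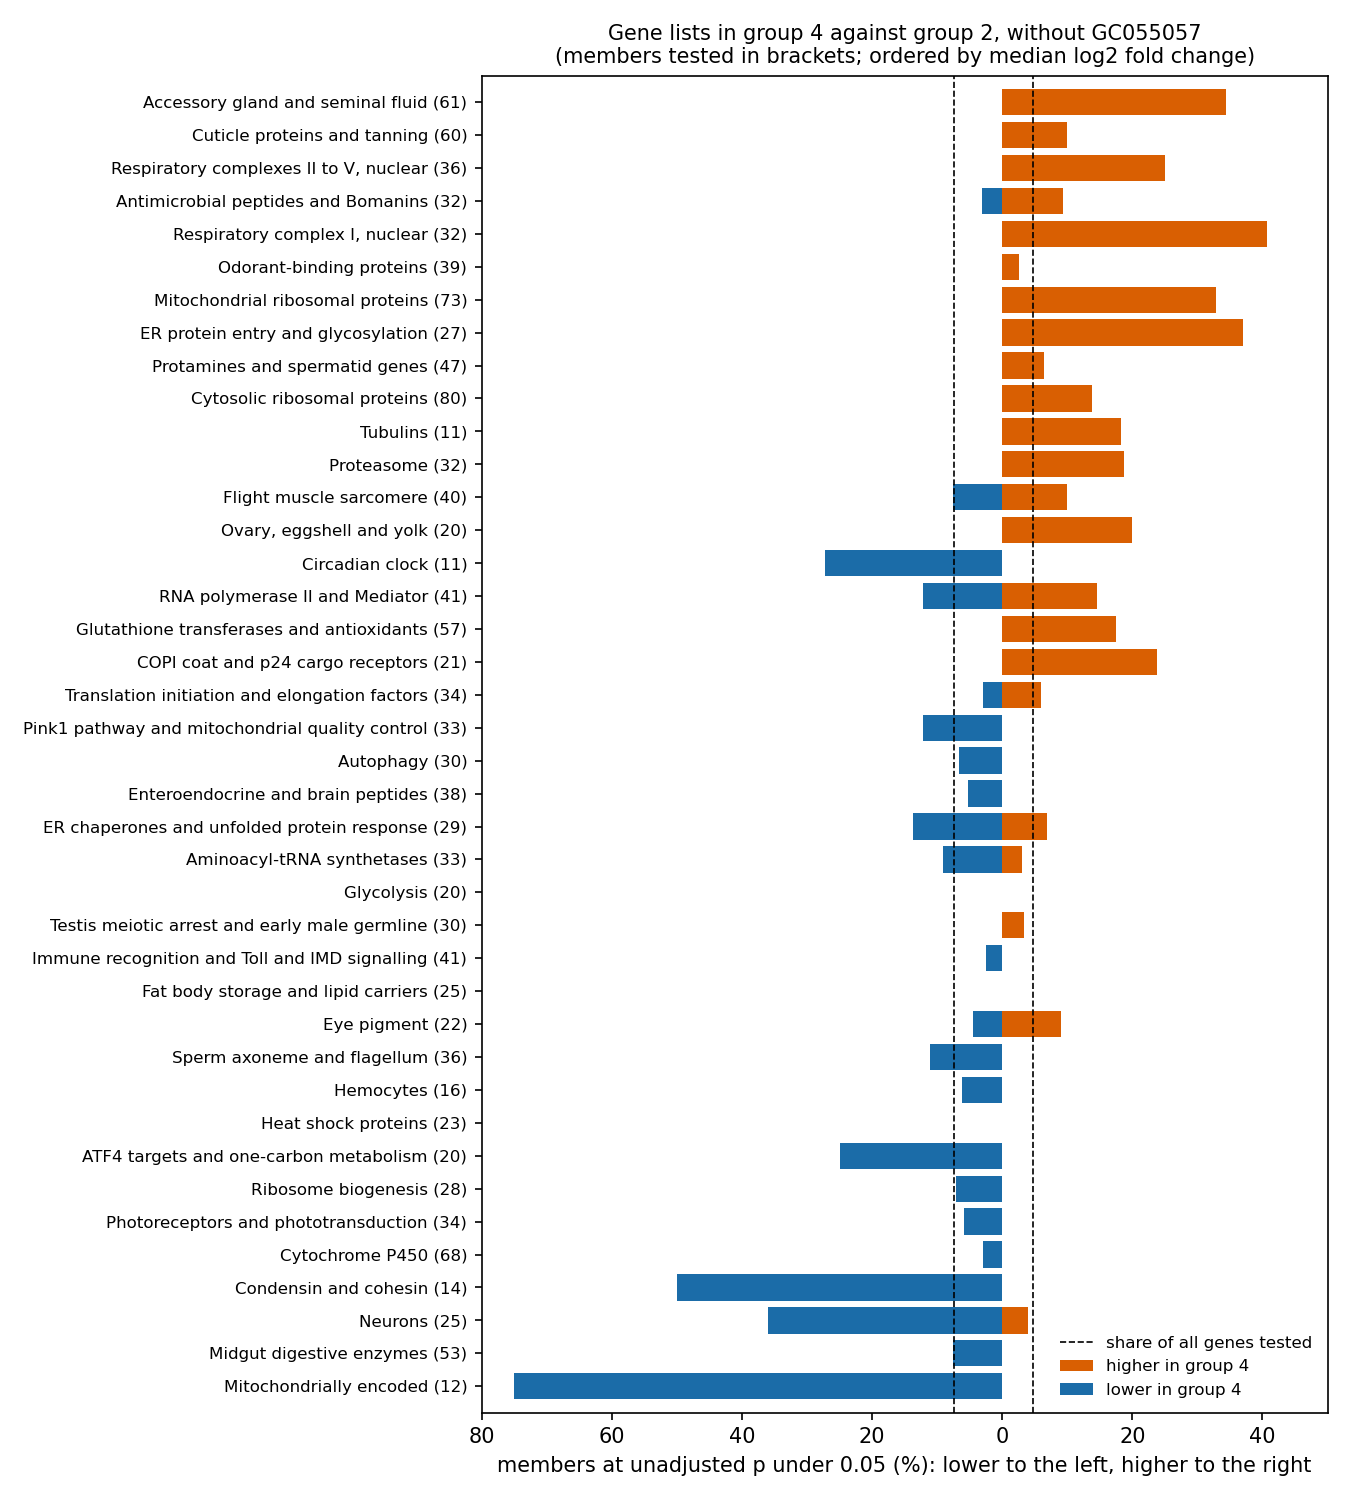
For each of 40 gene lists, with the number of members tested in brackets, the bars give the percentage of members nominally higher in group 4 (orange, to the right) or lower (blue, to the left), and the dashed lines give the shares over all genes tested, 4.72% and 7.39%. Complex I (40.6%), ER protein entry (37.0%) and the accessory gland (34.4%) reach farthest to the right, and mitochondrially encoded genes (75%) and condensin and cohesin (50%) farthest to the left.

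The remaining lists stand beside shares over all genes of 4.72% higher and 7.39% lower. Higher shares exceeded this for tubulins (18.2%), cuticle proteins (10%) and eye pigment (9.09%). Antimicrobial peptides (9.38%) were below the 12.1% of their length class, and translation factors (5.88%) were near the share over all genes. The lower share exceeded it for ATF4 targets (25%). For the circadian clock (27.3%, 0 genes with the length index) it was near the 27.5% of its length class. The sperm axoneme (11.1%) and aminoacyl-tRNA synthetases (9.09%) stood beside 9.46% in their length class. Midgut enzymes (7.55%) were near the share over all genes. No nominal gene was found for glycolysis (20 genes, median −0.04), heat shock proteins (23, −0.10) or fat body storage (25, −0.07). Autophagy held 0 higher and 2 lower of 30 (*bchs* and *Atg7*), ribosome biogenesis 0 and 2 of 28, translation factors 2 and 1 of 34, aminoacyl-tRNA synthetases 1 and 3 of 33 and tubulins 2 and 0 of 11. For tissues, the sperm axoneme held 0 higher and 4 lower of 36, the early male germline 1 and 0 of 30, midgut enzymes 0 and 4 of 53 (median −0.27), gut and brain peptides 0 and 2 of 38, photoreceptors 0 and 2 of 34, eye pigment 2 and 1 of 22, hemocytes 0 and 1 of 16, and odorant-binding proteins 1 and 0 of 39. Immune signalling held 0 and 1 of 41, antimicrobial peptides 3 and 1 of 32, cytochrome P450 0 and 2 of 68, and the circadian clock 0 and 3 of 11. Targets of the stress factor ATF4 and one-carbon enzymes were lower for 5 of 20 (*sll*, *Sardh*, *trbl*, *Gnmt* and *pug*) and higher for 0. The count was 1 with the length index or without replicate 2 of group 2, 2 without replicate 1 of group 2 or 2, 8 or 9 of group 4, and 3 without replicate 3, 5, 6 or 7 of group 2 or 5, 6 or 10 of group 4. Cuticle proteins were higher for 6 of 60 and above 0 for 55 (median 0.31), and for 2 without replicate 1 or 5 of group 2, 3 without replicate 6 of group 4 and 9 with the length index.

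The direction of some of these small counts depended on the fit. Midgut enzymes had 11 higher and 0 lower with the length index and 11 higher and 1 lower with 2 surrogate variables, and single libraries moved their lower count from 2 (without replicate 3 or 5 of group 2 or 8 or 10 of group 4) to 7 (without replicate 6 or 8 of group 2). Aminoacyl-tRNA synthetases had 8 higher and 0 lower with the length index, hemocytes 5 and 0, autophagy 5 and 1, cytochrome P450 5 and 1 and photoreceptors 4 and 1. For the sperm axoneme, 8 were lower with GC055057, 0 with the length index, and from 1 (without replicate 1 or 2 of group 2) to 9 (without replicate 4 of group 2 or 7 of group 4) when a library was left out.

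Some large differences came from a few libraries. *LManV*, a lysosomal mannosidase, was at 1.17, 9.38 and 151 CPM in group 2 and at 0.473, 2.03 and 13.8 CPM in group 4 (−3.29, SE 1.10, edgeR, p = 0.00597, adjusted p = 0.359). Replicates 3 and 5 of group 2 alone were above 100 CPM. *LManIII*, a neighbouring copy that can share reads with it, was high in the same libraries, at 1.09, 3.99 and 44.3 CPM against 0.820, 2.20 and 6.45 CPM (−2.39).

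In GC055057, ovary genes gave the largest differences of the fit with all libraries. *Cp38*, *Cp36* and *Cp19*, which encode eggshell proteins, were at 1423, 939 and 1318 CPM there. Among the other flying libraries they did not exceed 2.21, 0.942 and 1.55 CPM, and in group 2 their highest values were 0.0430, 0.156 and 0.204 CPM. *osk*, the maternal germ plasm gene, was at 498 CPM in GC055057 and at most 0.424 CPM in the other libraries of both groups, *Yp1*, a yolk protein, at 379 against at most 1.79 CPM, and *Pxt*, a peroxidase of the ovary, at 319 against at most 0.942 CPM. With GC055057, 16 of 21 genes of the ovary list were nominally higher, and without it 4 of 20. Of these 4, *Cp38* and *Cp19* stayed under 2.3 CPM, with the highest value in replicate 6 of group 4, so no fold is given for them.

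**Figure D5:**
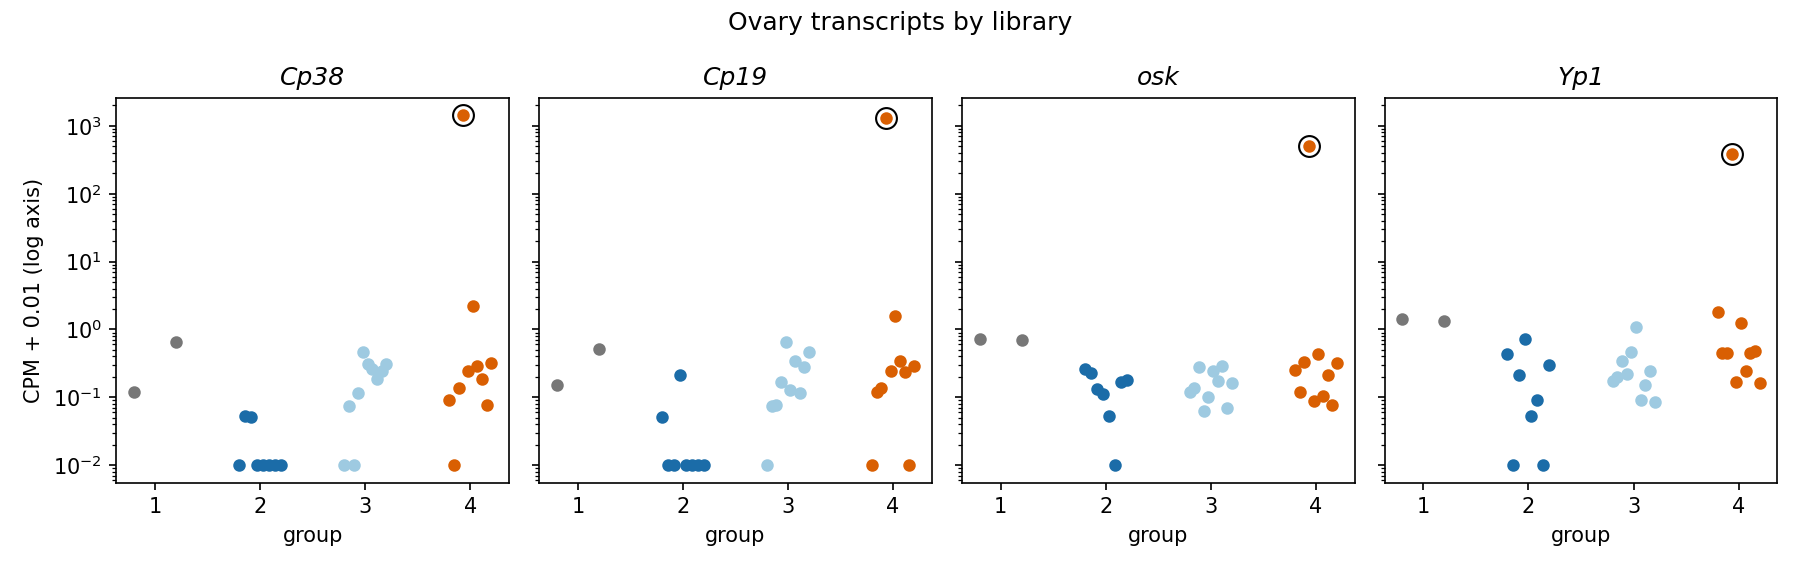
Each point is the level of a library for *Cp38*, *Cp19*, *osk* and *Yp1* in groups 1 to 4, as CPM + 0.01 on a log axis, with GC055057 ringed. GC055057 is at 1423, 1318, 498 and 379 CPM, and the other libraries of groups 2 and 4 are at or below 2.21 CPM.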

How the data were processed

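Pools of 5 whole males were sequenced as stranded total RNA. The authors filtered reads with fastp 0.23.4, pseudoaligned them to BDGP6.46 with kallisto 0.44.0 and made gene values with tximport 1.26.1, while the processing notes name kallisto 0.45.0 and GRCh38. The values deposited by the authors are estimated counts per gene, all whole numbers, for 14326 genes. Total counts of 6434252 to 38330421 leave the spread between pools as the main error. Kallisto can divide reads between near-identical copies such as paralogs.

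Counts were tested with edgeR 4.0.16 in R 4.3.3 (filterByExpr, TMM scaling, robust quasi-likelihood) in 1 model over the 4 groups, with Benjamini-Hochberg adjustment over all genes tested. SE is the log2 fold change over the square root of F. CPM are TMM-scaled. Library measures were compared by exact permutation, and the 14 tests take each measure with and without GC055057. Those of the length index, the chromosome 4 median and the mitochondrial share were not planned. The tests were repeated with limma-voom (limma 3.58.1), DESeq2 1.42.0, other filters and scalings, 2 surrogate variables from sva 3.50.0, and each library left out. The length index as a covariate was added after the data were seen. Steps were tested on simulated data. Python 3.11.15 with pandas 2.3.3, scipy 1.17.1, numpy 2.4.6 and matplotlib 3.10.9 made tables and figures.

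The members and the 40 gene lists were chosen with earlier results of these data known. Of 1457 symbols in the lists, 1403 matched by symbol and 31 by synonym. Named genes were *Pink1*, *Torsin*, *KdelR*, *wbl*, *zda*, *CG13375*, *CG7166* and *Cap-H2*, the 12 genes with the smallest p and a mean of at least 5 CPM, the 6 largest differences each way at an unadjusted p under 0.01, the 6 largest with all libraries, and up to 3 members per list plus others needed to describe it. The largest differences were likewise taken among genes with a mean of at least 5 CPM. *RluA-2* was also chosen after its values were seen. Lengths and chromosomes came from BDGP6.54. Sequences were not used here.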

Additional observations from a re-analysis of the deposited data

Results flagged for a closer look

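Of 76 sets of library values examined, a set being a named gene or library measure in group 2 or group 4, 16 had a lowest or highest library apart from the rest. Chance sets apart about 1 in 20 such groups. The 16 cannot be weighed against that rate, because some of the genes were chosen with GC055057 in the fit. *Cp38*, *Cp19*, *Cp36*, *osk*, *Yp1* and *Pxt* were named for their large differences with all libraries, so their high values in GC055057 came with the choice. GC055057 (group 4, replicate 4) gave 11 of the 16. In it *Cp38* was at 1423 CPM, *Cp19* at 1318 CPM, *Cp36* at 939 CPM, *osk* at 498 CPM, *Yp1* at 379 CPM and *Pxt* at 319 CPM, each far above the 9 other flying libraries. *PlexA* at 259 CPM, *Nipped-B* at 223 CPM, *Pink1* at 101 CPM and *Torsin* at 37.9 CPM were its other high values, and *CG11600* was low at 3.16 CPM.

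In group 2, replicate 8 was low for *pan*, at 51.9 CPM where the next library was at 102 CPM, and for *CG13375*, at 9.78 CPM where the next was at 13.1 CPM. Eggshell genes close to 0 gave the other values of group 2, with *Cp19* at 0.204 CPM in replicate 4 and *Cp36* at 0.156 CPM in replicate 7. In group 4, *CG15465* was highest in replicate 5, at 21.9 CPM. The cause was not tested in any of these.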

How the results depend on the processing

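At an adjusted p under 0.05, edgeR called 0 genes in both sets, DESeq2 called 3 with all libraries and 2 without GC055057, and the length index as a covariate gave 10 and 2. Leaving out single libraries gave 0 to 1 in both sets, the 1 gene being *pan* without replicate 8 of group 2. At an unadjusted p under 0.05, the 1593 genes with all libraries became 2659 with 2 surrogate variables, 2410 with the length index and 1110 to 2134 without single libraries. The 1598 genes without GC055057 became 1040 without the libraries labelled human skin and 1069 to 2585 without single libraries, with 2497 without replicate 4 and 2585 without replicate 8 of group 2. The cause was not tested. Of these genes, 39.0% were higher in group 4, and 56.4% with all libraries, 53.8% with surrogate variables, 48.9% with limma-voom and 30.8% above a mean of 5 CPM.

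The sign turned for *zda*, whose fold change of about 0 became 0.00043 with upper-quartile scaling, 0.0216 with surrogate variables and 0.00527 with the length index, and lay between −0.0265 and 0.0221 without single libraries. *Pxt* lay between −0.11 and 0.38. For the named genes, 935 of 945 alternative values kept their direction and side of the threshold. None of these genes passed the adjusted threshold in the fit without GC055057, and many were chosen from that fit. The alternatives also share most of their libraries, so this number cannot gauge how stable the differences are. Of the 2320 alternative counts over lists, 527 moved by more than 1.5 times or changed from a count of 0. No paired analysis was possible because the labels give no replicate numbers, and those used here only follow the order of deposition. Differences of genes with few counts are limited by depth.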
